A study of Mus musculus with 2 samples.

Results

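The JAK-STAT feedback genes described here are 8 of the 32285 genes in the count tables: the inhibitors *Socs1*, *Socs2*, *Socs3* and *Cish*, the induced genes *Pim1* and *Bcl3*, and the transcription factors *Stat3* and *Stat5a*. They were matched by gene symbol, and all 8 were found in both libraries. The transcripts of single CD8+ T cells, the cytotoxic T cells, were counted in cells taken from B16 F0 melanoma tumors transplanted into male C57Bl/6J mice aged 16 weeks. Lean mice ate normal chow and obese mice a western diet. CD8+ cells were enriched on magnetic beads and sorted by CD8 staining, and 1 library was made from lean and 1 from obese mice with the Chromium 3′ kit. How many mice went into each library is not stated in the sources used here.

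Cytokines such as the interleukins and interferons bind receptors that carry JAK kinases, which phosphorylate STAT proteins so that they enter the nucleus and switch on genes. Among those genes are the SOCS family and *Cish*, whose proteins bind the receptors or kinases and damp the same signal, so their transcripts are often read as a trace of recent cytokine signalling. In CD8+ T cells, interleukins 2, 7 and 15 act mainly through STAT5 and interleukin 6 and leptin mainly through STAT3, with *Socs3* as a classical target and inhibitor of the latter.

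Cells with under 7.5% mitochondrial counts and with over 500 and under 50000 unique molecular identifiers (UMIs, 1 per captured transcript molecule) were kept. These were 2456 of 2697 cells from lean and 2289 of 2623 cells from obese mice, with 27815785 and 28705830 UMIs and medians of 7958 and 9103 UMIs per cell. A *Cd8a* or *Cd8b1* UMI was present in 96.1% and 96.7% of the kept cells, and the libraries shared 2 cell barcodes. Levels are UMIs of a gene per 1000000 UMIs of all genes (CPM). A UMI marks a molecule by its 3′ end, so CPM values were compared between genes without a correction for length. With 1 library per diet there is no replicate check and no test: the 95% intervals cover counting error only, and differences between mice, tumors or library preparations cannot be told apart from diet. A gene is called higher or lower where its CPM differs between libraries by at least 0.5 on the log2 scale, provided that it reached 10 CPM in either library.

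Cells were grouped into 7 clusters without using the 8 genes or the rest of the pathway. Cluster 0 was led by *Gzma* and *Ifit3* (479 lean and 722 obese cells) and is called by these genes. At a finer clustering, 415 of its lean and 633 of its obese cells fell in a group led by *Gzma* and *Ccl5*, and 58 and 65 in one led by *Ifit3* and *Rsad2*. Cluster 1 was proliferating-like (478 and 576 cells), cluster 2 naive- or memory-like with *Lef1*, *Satb1* and *Tcf7* (574 and 418) and cluster 3 effector-like with *Gzmd*, *Gzme* and *Gzmf* (608 and 309). Cluster 4 (278 and 182 cells) stayed unnamed. Its cells were shallow, with a median of 2629 UMIs. Of its 10 leading genes, 4 were hemoglobins, found only in the obese library and so no description of its lean cells. The next were *Gm26917*, *Rmrp* and *Lars2*. Clusters 5 (unnamed, 90 cells in all) and 6 (dendritic-like, 31 cells) had under 50 cells in a library and are left out of the comparisons by cluster.

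*Pim1* and *Stat3* were the most abundant of the 8 genes and *Socs2* the least. *Pim1*, a survival kinase, stood at 275 CPM in lean and 400.1 CPM in obese cells, and *Stat3* at 157 and 151 CPM. *Socs1* followed with 69.6 and 91.6 CPM, and *Socs3* with 45.8 and 71.0 CPM. *Cish*, *Bcl3* and *Stat5a* lay between 14.2 and 36.4 CPM. *Socs2* had 64 UMIs in the whole lean and 159 in the whole obese library (2.30 and 5.54 CPM), under the minimum of 10 CPM.

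**Figure D1:**
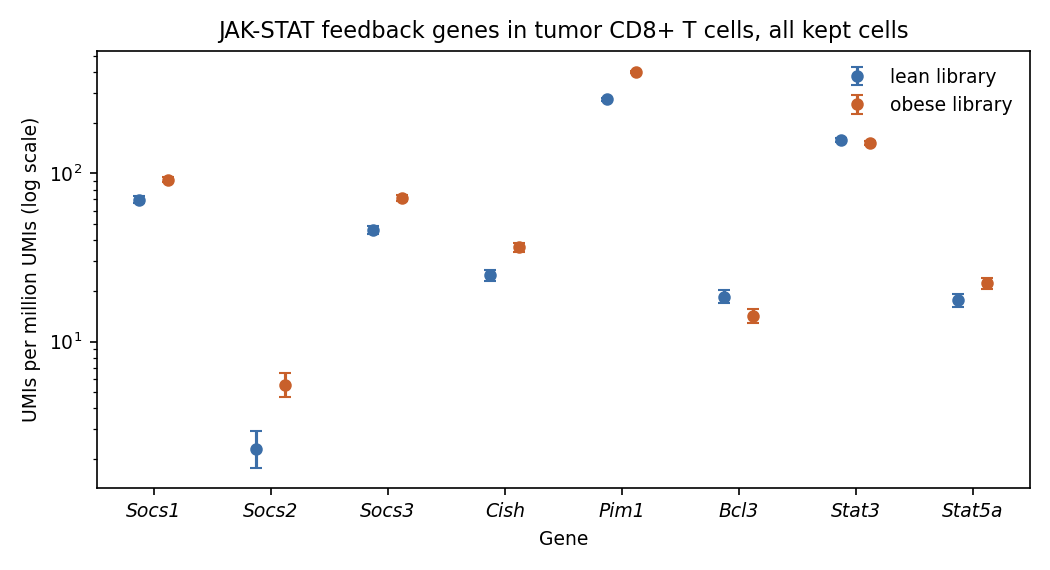
Level of each gene over all kept cells, in CPM on a log axis. Points are the lean (blue) and obese (orange) library and bars exact Poisson 95% intervals; *Socs1*, *Socs2*, *Socs3*, *Cish*, *Pim1* and *Stat5a* lie higher and *Bcl3* lower in the obese library, and the 2 *Stat3* intervals overlap.

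Sequence near the start sites is shown for the 3 inhibitors in which a motif searched was found: the sites that STAT dimers can bind in *Socs3* and *Cish*, and the repeat type bound by interferon regulatory factors in *Socs1*. The sequences are from RefSeq on build GRCm38.p6, which held a window of 250 bases before and 50 bases after the start for 7 of the 8 genes (9 windows). *Socs2* had no entry. Capitals mark TTCNNNGAA, which reads the same on both strands, in *Socs3* and *Cish*, and GAAA repeated after any 2 bases, searched on both strands, in *Socs1*. The second motif was added after the levels by cluster were seen.
Socs3: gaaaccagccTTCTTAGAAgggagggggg
Cish: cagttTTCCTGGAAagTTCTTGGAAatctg
Socs1: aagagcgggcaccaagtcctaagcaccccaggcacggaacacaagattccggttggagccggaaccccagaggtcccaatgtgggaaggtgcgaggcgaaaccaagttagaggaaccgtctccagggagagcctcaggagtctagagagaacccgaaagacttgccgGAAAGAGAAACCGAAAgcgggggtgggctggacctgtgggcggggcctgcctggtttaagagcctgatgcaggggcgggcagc
The *Socs3* stretch lies at chr11:117969502-117969530 on the minus strand, 154 bases before the RefSeq start at its motif, and inside an intron of a longer GENCODE transcript of *Socs3*. The *Cish* stretch lies at chr9:107296654-107296683 on the plus strand, across the RefSeq start and in the first exon and 5′ UTR of a GENCODE transcript that starts further upstream. The *Socs1* stretch is the 250 bases before the start, chr16:10785537-10785786 on the minus strand, where GENCODE has no transcript.

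TTCNNNGAA was found in 2 of the 7 genes, once in *Socs3* and at 2 places in *Cish*. Of all 32851 windows of 300 bases, 8.30% held it and 0.457% held it at 2 or more places. The GAAA repeat stood at 2 overlapping places in *Socs1*, from 83 and from 77 bases before the start, and in the 250 bases before the start of 2.98% of all windows, with 2 or more places in 0.180%. None of the other 6 genes with a window held the GAAA repeat there. These matches describe letters, and binding was not measured.

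*Socs3*, the inhibitor linked to STAT3-activating receptors, was concentrated in naive- or memory-like cells. In cluster 2 it stood at 164 CPM (152 to 176) in lean and 251 CPM (234 to 268) in obese cells. It followed with 89.2 and 114 CPM in cluster 0, 32.1 and 33.3 CPM in cluster 4, 16.7 and 30.5 CPM in effector-like cluster 3, and 9.81 and 25.8 CPM in proliferating-like cluster 1. The order was the same in both libraries. No neighbouring intervals overlapped in the lean library, while those of clusters 4 and 3 and of clusters 3 and 1 did in the obese library. The highest level was 16.7-fold the lowest in the lean and 9.72-fold in the obese library.

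At equal depth, the share of cells with a *Socs3* UMI was also highest in cluster 2 and lowest in cluster 1, among clusters 0 to 4. The order between them was not the same throughout: in obese cells cluster 3 (6.47%) stood above cluster 4 (5.19%), with overlapping intervals. With each cell thinned to 2000 UMIs, 27.5% (23.9 to 31.4%) of lean and 38.8% (34.1 to 43.6%) of obese cluster 2 cells had one, against 1.46% and 4.52% in cluster 1. Without thinning the shares were 59.8% and 74.2% in cluster 2, and 17.4% and 30.7% in cluster 1, whose median was 22594.5 UMIs against 7622 in cluster 2. Shallow cluster 4 then had the lowest shares of clusters 0 to 4, at 7.91% and 8.24%. Over all cells, thinning left out 126 lean and 112 obese cells that were too shallow. Cluster 2 made up 57.9% of all *Socs3* UMIs in the lean library and 43.0% in the obese library.

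*Socs1*, a broad inhibitor of JAK kinases that is induced by interferons, was ordered in the same way over clusters, but over a narrower range of 3.18-fold and 2.72-fold. It was highest in cluster 2 (137 and 167 CPM), then in cluster 0 (121 and 111 CPM), where the lean intervals of both overlapped. It was lowest in cluster 1, at 43.2 CPM in lean and 61.5 CPM in obese cells. Among 9 finer clusters with at least 50 cells in each library, *Socs1* was highest in 2 groups: one led by *Ifit3* and *Rsad2* (226 CPM in lean, 160 CPM in obese cells) and one led by *Igfbp4*, *Txndc16* and *Lef1* (223 and 248 CPM). *Socs3* reached its highest level in the second of these, at 266 and 314 CPM. In obese cells the *Socs1* interval of the group led by *Ifit3* and *Rsad2* was 126 to 201 CPM. It overlapped those of groups led by *Cd81* (134 to 169 CPM) and *Klra7* (105 to 135 CPM).

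*Cish*, an inhibitor induced by STAT5, differed from *Socs3* and *Socs1* in cluster 2. It was lowest in cluster 2, with 22 UMIs in 574 lean cells (4.88 CPM) and 26 UMIs in 418 obese cells (7.43 CPM), and highest in cluster 4 (48.7 and 75.8 CPM). In cluster 0 it stood at 45.5 and 41.9 CPM, in cluster 3 at 32.9 and 49.7 CPM, and in cluster 1 at 20.2 and 34.5 CPM. The intervals of clusters 4 and 0 overlapped in the lean library. Those of clusters 3 and 0 and of clusters 0 and 1 did in the obese library. Thinned to 2000 UMIs, 1.22% of lean and 1.91% of obese cluster 2 cells had a *Cish* UMI, against 7.73% and 10.0% in cluster 3. Without thinning these shares were 3.83% and 5.02%, against 28.8% and 39.5%. Free RNA from other cells can give shares as low as those in cluster 2, and its part was not tested.

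**Figure D2:**
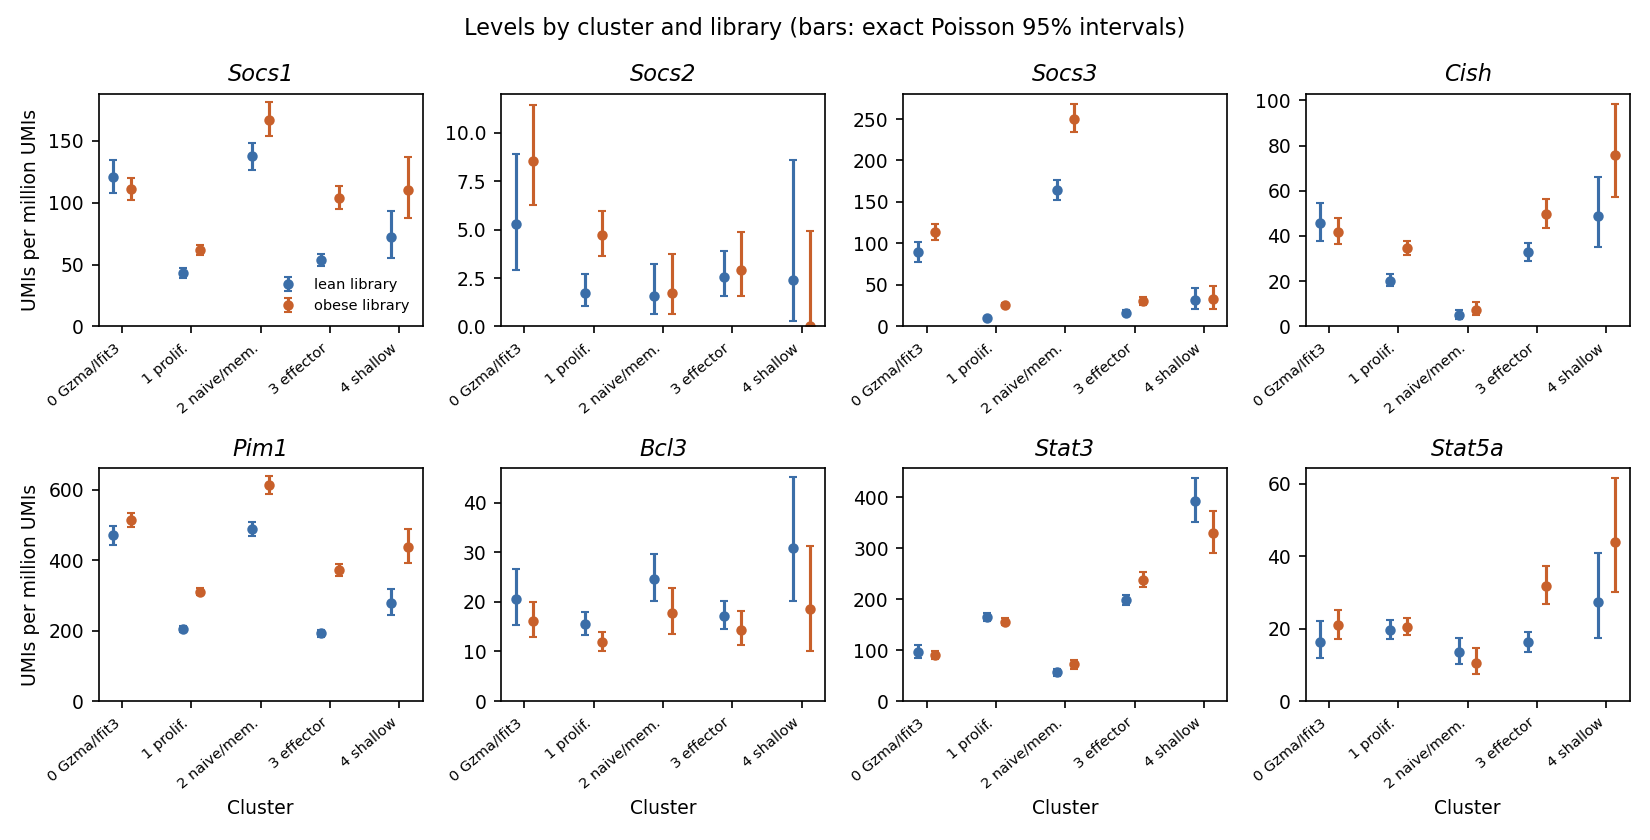
Level of each gene, in CPM, in clusters 0 to 4, with the lean library in blue, the obese in orange and exact Poisson 95% intervals as bars. *Socs3*, *Socs1* and *Pim1* are highest in naive- or memory-like cluster 2, where *Stat3* and *Cish* are lowest.

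*Socs2*, an inhibitor best known for growth hormone and STAT5 signalling, was too rare to order. It was between 1.55 and 5.31 CPM in every lean cluster from 0 to 4, and the intervals of all neighbouring clusters overlapped. In the obese library it was highest in cluster 0, with 45 UMIs in 722 cells (8.57 CPM), and in cluster 4 it had 0 UMIs in 182 shallow cells, which allows up to 1.65% of cells with a UMI and sets no limit on cells with the transcript. Of its 159 UMIs in the obese library, 28 (17.6%) came from 4 of the 21 dendritic-like cells, and 21 of those from a single cell.

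*Pim1* had a narrower range over clusters than *Socs3*, *Cish* or *Stat3*. Its range was 2.54-fold in lean and 1.97-fold in obese cells, from 192 and 311 CPM in the lowest cluster (cluster 3 in lean, cluster 1 in obese cells) to 487 and 612 CPM in cluster 2. *Bcl3*, an IκB family protein that works with NF-κB dimers and is induced by STAT3, ranged from 15.6 to 30.9 CPM in lean and from 11.9 to 18.6 CPM in obese cells, and the intervals of all neighbouring clusters overlapped in both libraries.

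*Stat3*, the factor that interleukin 6 and leptin receptors act through, was lowest in clusters 2 and 0, where *Socs3* was highest. Clusters 4, 3 and 1 stood in the same order for both genes. *Stat3* fell from 393 and 330 CPM in cluster 4, through 198 and 238 CPM in cluster 3, 165 and 156 CPM in cluster 1 and 96.4 and 90.4 CPM in cluster 0, to 56.2 and 72.0 CPM in cluster 2. No neighbouring intervals overlapped in either library. *Stat5a*, 1 of the 2 STAT5 genes and a close paralog of *Stat5b*, was at 27.3 and 43.9 CPM in cluster 4 and at 13.5 and 10.6 CPM in cluster 2, its highest and lowest values. All neighbouring intervals of *Stat5a* overlapped in the lean library, and those of clusters 4 and 3 and of clusters 0 and 1 in the obese library. The annotated 3′ ends of *Stat5a* and *Stat3* overlap by 72 bases on opposite strands (*Stat5a* chr11:100859351-100885169, *Stat3* chr11:100885098-100939540, GENCODE on GRCm38). Whether reads were counted by strand is not given in the sources used here, so reads from the overlap may be shared between these genes.

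A highest level at least 4-fold the lowest in both libraries, with the same highest cluster, was met by 3 of the 7 genes that reached 10 CPM (*Socs3*, *Cish* and *Stat3*), against 20.2% of all 7064 such genes. For *Cish* and *Stat3* the highest cluster was shallow, unnamed cluster 4. The next highest for *Cish* was cluster 0 in lean and cluster 3 in obese cells. For *Stat3* it was cluster 3, at less than 4-fold the cluster 2 level in both libraries. The share of all genes without cluster 4 was not counted.

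Across 21 cluster-by-library units of at least 50 cells at the finer clustering, correlations were taken between log2(CPM + 1) levels. *Socs1* ran with *Socs3* (Pearson r = 0.84) and *Pim1* (r = 0.83), and *Socs3* with *Pim1* (r = 0.85). *Stat3* ran with *Stat5a* (r = 0.70) and *Cish* (r = 0.69), and against *Socs3* (r = −0.70). *Cish* and *Socs3* had r = −0.38, and *Stat3* and *Socs1* r = −0.45. The highest r with another of the 8 genes was 0.47 for *Bcl3* and 0.01 for *Socs2*. These units share 2 libraries and differ in depth, so the values are descriptions. They include 63 obese cells of a shallow finer group led by *Ptgds*, nearly all from cluster 5, which the comparisons by cluster leave out. *Bcl3* and *Stat5a* had their highest values of all units there, at 73.9 CPM from 4 UMIs each. The weight of this unit in the correlations was not tested.

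**Figure D3:**
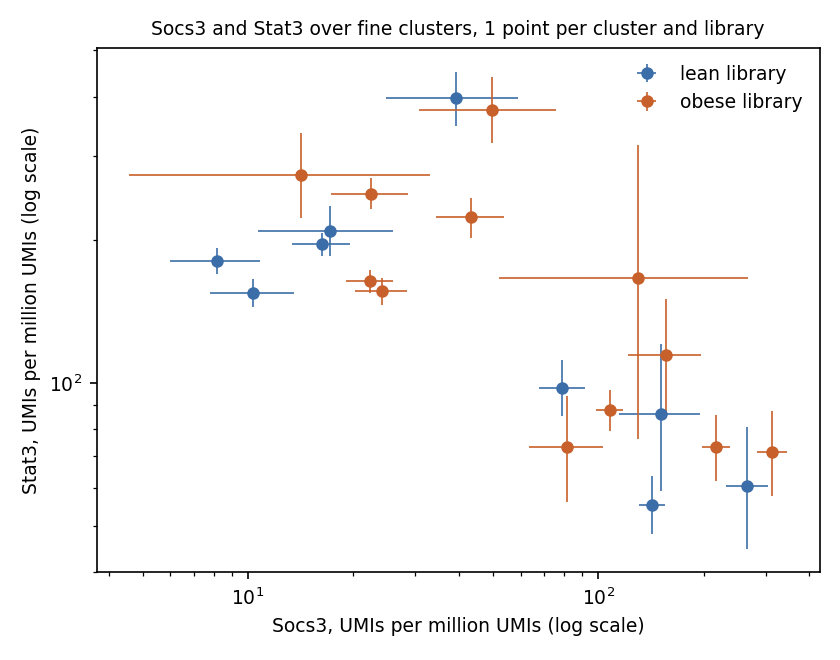
*Stat3* against *Socs3* level, both in CPM on log axes, with 1 point for each of 21 units of fine cluster and library and exact Poisson 95% intervals. Units with high *Socs3* lie at low *Stat3* in both libraries (r = −0.70).

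The genes most like each of the 8 in the same units are given as a description. *Socs3* was nearest to *Foxp1* (r = 0.95) and *Klf2* (r = 0.94), transcription factors of resting T cells, and to *Gm2682* (r = 0.94). *Pim1* was nearest to *Fos* (r = 0.95), *Junb* (r = 0.94) and *Zfp36* (r = 0.93), which are immediate early genes, induced within minutes of a stimulus. *Stat3* was nearest to *Trps1* (r = 0.96), *Rgs8* (r = 0.95) and *Dusp4* (r = 0.95), and *Cish* to *Stk32c*, *Rgs1* and *Bhlhe40* (r = 0.92 for each). The nearest genes to *Socs1* were *Ssbp2* (r = 0.90), *Pecam1* (r = 0.88) and *Cd69* (r = 0.87), and those to *Stat5a* were *Cog2* (r = 0.91), *Itpr1* and *Nfat5* (r = 0.88 for both). For *Bcl3* they were *Ap3m2* (r = 0.84), *Znrf1* and *Spop* (r = 0.82 for both), and for the rare *Socs2* they were *Sept1* (r = 0.71), *Drap1* (r = 0.70) and *Ndufa9* (r = 0.69).

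Between the libraries, *Socs3*, *Cish* and *Pim1* were higher in obese cells over all kept cells. *Socs3* rested on 1275 lean and 2039 obese UMIs and its log2 ratio of obese over lean was 0.63 (0.53 to 0.73). *Cish* had 689 and 1044 UMIs and a log2 ratio of 0.55 (0.41 to 0.69), and *Pim1* 7652 and 11486 UMIs and a log2 ratio of 0.54 (0.50 to 0.58). So 3 of the 7 genes with at least 10 CPM were higher and 0 lower by the fold, where 2.51% of all 7064 such genes were higher and 1.84% lower. The median log2 ratio of the 7 was 0.40, and that of all genes 0.04.

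The other genes differed by less than the fold. *Socs1* had a log2 ratio of 0.40 (0.31 to 0.48), *Stat5a* 0.34 (0.17 to 0.51) and *Bcl3* −0.38 (−0.58 to −0.19), so *Bcl3* pointed opposite to the inhibitors. *Stat3* had a log2 ratio of −0.06 (−0.12 to 0.0016), an interval that holds 0. *Socs2* had 1.27 (0.84 to 1.71), under the CPM minimum in both libraries.

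The 3 calls over all cells depended on how cells were weighed and on which cells were used. With every cell given the same weight, the log2 ratios were 0.46 for *Socs3*, 0.40 for *Cish* and 0.43 for *Pim1*, and 0 genes passed the fold. With the same cluster weights in both libraries, *Socs3* kept 0.55, while *Cish* had 0.38 and *Pim1* 0.42. With cells thinned to 2000 UMIs all 3 fell short of the fold (0.45 for *Socs3*, 0.31 for *Cish* and 0.39 for *Pim1*), as they did at 1000 UMIs (0.32, 0.42 and 0.44). Thinning also gives every cell it uses the same weight, so depth and weight cannot be told apart here. With all deposited cells *Socs3* and *Pim1* fell short of the fold (0.49 for both).

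Many immediate early and heat shock genes were also higher in the obese library. Of 19 such genes with at least 10 CPM, 12 were higher and 0 lower in obese cells, with a summed level of 5686 CPM in lean and 7726 CPM in obese cells. In effector-like cluster 3, 13 of 20 were higher and 0 lower, with a median log2 ratio of 0.81. In cluster 0, where 0 of the 7 feedback genes tested were higher, 7 of 19 of these genes were higher and 0 lower (median 0.46). Their sum was larger in the obese library in each of clusters 0 to 4, and their part in the result was not tested. Of 17 interferon-stimulated genes with at least 10 CPM, 0 were higher and 0 lower, with a median log2 ratio of −0.21 and sums of 3509 and 3357 CPM. In cluster 3, 10 of 18 were lower and 0 higher (median −0.62), and in cluster 0, 4 of 19 were lower and 0 higher (median −0.41). Defining markers of other cells stood at differing levels. The 7 melanoma genes summed to 1.22 CPM in lean and 1.46 CPM in obese cells, with *Tyr* at 0 in both. The 10 myeloid genes summed to 24.8 and 22.8 CPM, with *S100a9* at 0 in both, and the 9 dendritic genes to 112 and 241 CPM. Dendritic-like cluster 6 held 593 of the 3105 lean and 4877 of the 6916 obese UMIs of these 9 genes. The 5 CD4 T cell genes summed to 132 and 150.5 CPM, the 6 natural killer or gamma-delta genes to 51.7 and 46.1 CPM, the 9 fat or stroma genes to 11.5 and 16.8 CPM, with *Adipoq*, *Lep*, *Col3a1* and *Dcn* at 0, and the 6 B cell genes to 41.4 and 65.1 CPM. The B cell sum was 19.6 and 47.8 CPM in cluster 1, 23.7 and 53.8 CPM in cluster 3 and 53.1 and 61.3 CPM in cluster 0, with *Ms4a1* at 0 in these clusters, and its part in the result was not tested. The 5 red cell genes had 0 UMIs in lean cells and 321 CPM in obese cells, nearly all of it in cluster 4. Without dendritic-like cluster 6 the same 3 genes passed the fold.

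Within clusters, the most genes were higher by the fold in effector-like cells. In cluster 3, *Pim1* was at 192 CPM in lean and 373 CPM in obese cells, a log2 ratio of 0.96 (0.86 to 1.06). *Socs1* was at 53.5 and 104 CPM, a log2 ratio of 0.96 (0.77 to 1.14), and *Stat5a* at 16.2 and 31.7 CPM, a log2 ratio of 0.97 (0.62 to 1.31). *Socs3* had a log2 ratio of 0.87 (0.52 to 1.21) and *Cish* 0.59 (0.34 to 0.85), while *Stat3* had 0.27 (0.16 to 0.38) and *Bcl3* −0.25. So 5 of 7 genes were higher and 0 lower in cluster 3, against 8.80% and 4.60% of all 7001 genes tested there, and the median of the 7 was 0.87 against 0.04 for all genes.

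Cluster 3 differed in makeup between the libraries. Of its 608 lean cells, 499 fell in a finer group led by *Gzmd* and 103 in one led by *Cd81*, *Ccl1* and *Penk*, against 165 and 134 of its 309 obese cells. Within the *Gzmd* group the log2 ratio was 0.97 (0.85 to 1.10) for *Pim1*, 0.68 (0.43 to 0.94) for *Socs1*, 0.65 (0.35 to 0.95) for *Cish* and 0.62 (0.14 to 1.10) for *Stat5a*. For *Socs3* it was 0.46 (−0.0058 to 0.92), under the fold and with an interval that holds 0. Within the *Cd81* group it was 1.34 (0.65 to 2.09) for *Socs3* and 0.78 (0.46 to 1.11) for *Socs1*.

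In proliferating-like cluster 1, *Socs3* had the largest ratio of the 7 feedback genes tested. It was at 9.81 CPM in lean and 25.8 CPM in obese cells, from 112 and 362 UMIs, a log2 ratio of 1.39 (1.08 to 1.71). Its lean level was under 10 CPM, so it met the minimum only through the obese library. *Cish* (0.77), *Pim1* (0.61) and *Socs1* (0.51) were also higher, so 4 of 7 genes were higher and 0 lower, against 3.35% and 2.61% of 6900 genes. *Stat3* had a log2 ratio of −0.08, *Stat5a* 0.07 and *Bcl3* −0.39. *Socs2*, from 20 and 66 UMIs, had 1.42 (0.68 to 2.22) and was under the CPM minimum.

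In naive- or memory-like cluster 2, *Socs3* alone was higher by the fold among 6 genes tested, with a log2 ratio of 0.61 (0.47 to 0.76), and 0 were lower, against 5.74% and 4.63% of 6373 genes. *Stat3* (0.36), *Pim1* (0.33) and *Socs1* (0.28) had intervals above 0, and *Bcl3* (−0.48) an interval below 0. *Cish* was under 10 CPM in both libraries there, with a log2 ratio of 0.61 (−0.27 to 1.49). Cluster 2 also differed in makeup: 446 lean and 220 obese cells fell in a finer group led by *Klra7*, and 126 and 195 in the one led by *Igfbp4*, *Txndc16* and *Lef1*. *Socs1* had 0.0026 (−0.22 to 0.23) in the first and 0.16 (−0.11 to 0.43) in the second, intervals that both hold 0. *Socs3* had 0.60 (0.42 to 0.79) and 0.24 (−0.0032 to 0.48), *Pim1* 0.44 (0.34 to 0.54) and 0.12 (−0.06 to 0.30), and *Stat3* 0.40 (0.09 to 0.71) and 0.23 (−0.28 to 0.76).

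In cluster 0, led by *Gzma* and *Ifit3*, 0 of 7 genes were higher and 0 lower, against 5.97% and 3.90% of 6971 genes. *Socs3* had a log2 ratio of 0.35 (0.13 to 0.57) and *Pim1* 0.13 (0.03 to 0.23), and the intervals of *Socs1* and *Cish* (−0.12 for both), *Stat3* (−0.09), *Stat5a* (0.36) and *Bcl3* (−0.34) held 0. In its smaller group led by *Ifit3* and *Rsad2*, *Pim1* had 0.56 (0.30 to 0.83). In shallow cluster 4, *Stat5a* (0.68), *Pim1* (0.65), *Cish* (0.64) and *Socs1* (0.61) were higher and *Bcl3* (−0.73) lower, on 14 to 329 UMIs per gene and library, against 15.6% and 17.2% of 8567 genes. The intervals of *Stat5a* and *Bcl3* held 0 there, and *Socs3*, from 27 and 25 UMIs, had 0.05.

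**Figure D4:**
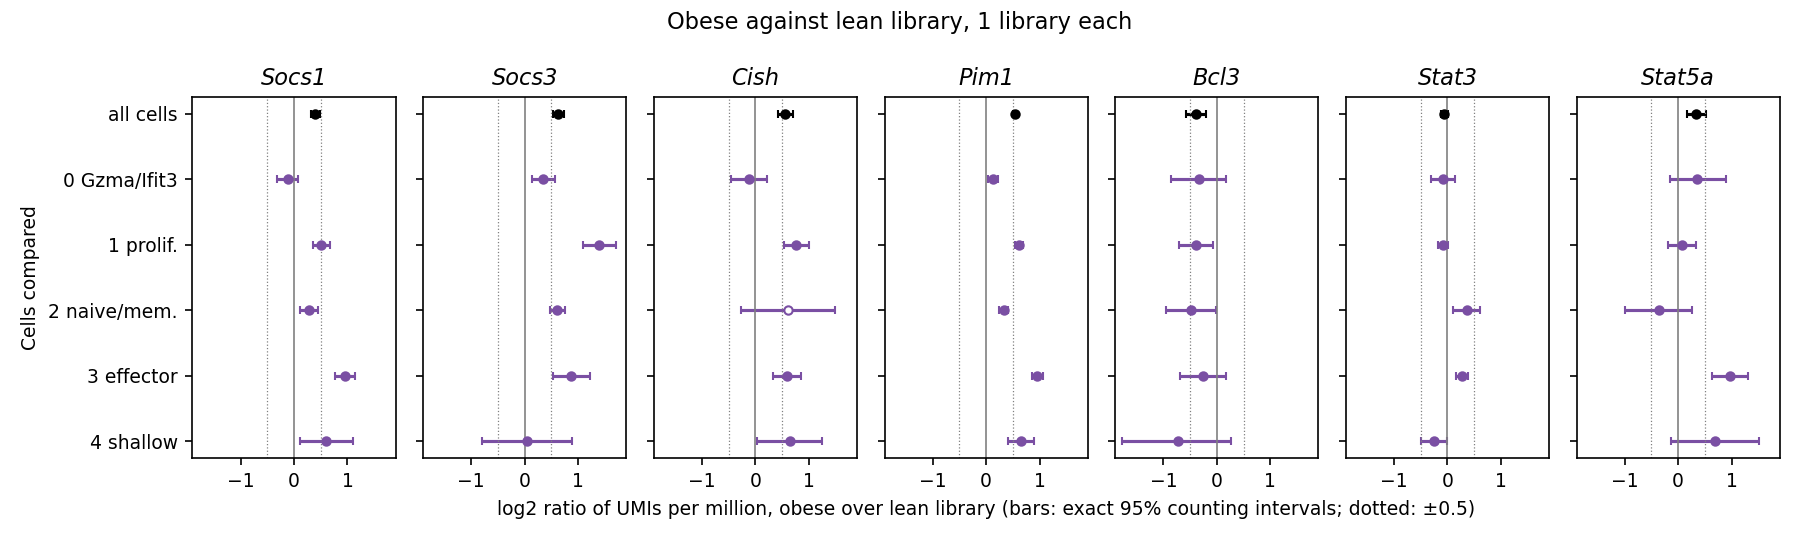
Log2 ratio of CPM, obese over lean library, for the 7 genes with at least 10 CPM, over all cells (black) and in clusters 0 to 4 (purple), with exact conditional binomial 95% intervals. The open point was under 10 CPM in both libraries, dotted lines mark 0.5 in either direction, and the ratios of *Socs1*, *Socs3*, *Cish* and *Pim1* lie further right in clusters 1 and 3 than in cluster 0, a contrast that was not tested.

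Over the 9 finer clusters, *Socs3* and *Pim1* had a log2 ratio above 0 in 9, and *Socs1*, *Cish* and *Stat5a* in 8. *Bcl3* was below 0 in 7. The interval lay wholly above 0 in 5 of the 9 for *Socs3*, in 7 for *Pim1*, in 6 for *Cish* and in 5 for *Socs1*, whose log2 ratio was −0.50 (−0.97 to −0.03) in the group led by *Ifit3* and *Rsad2*. The *Socs3* ratios ran from 0.05 in that group to 1.56 in the group led by histone genes. For *Stat5a* the interval lay wholly above 0 in 2 of the 9, and for *Bcl3* wholly below 0 in 2. *Stat3* was above 0 in 6 and below 0 in 3. These clusters come from the same 2 libraries, and such counts were not made over all genes.

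Some naive or memory markers also differed in clusters 1 and 3. Of the 8 markers, 4 were higher by the fold in obese cluster 1 cells and 4 in obese cluster 3 cells, and *Satb1* was lower by it in cluster 3. In cluster 1, *Ccr7* (−0.25), *Dapl1* (−0.44) and *Satb1* (−0.32) had intervals below 0. In cluster 0, 6 of the 8 had a ratio below 0 and the sum was 1648 CPM in lean and 1360 CPM in obese cells. The summed level of the 8 markers was 329 CPM in lean and 416 CPM in obese cells of cluster 1, and 372 and 591 CPM in cluster 3. Single genes weighed heavily in these sums. The largest gain in cluster 1 was that of *Klf2* (175 CPM in lean and 268 CPM in obese cells). In cluster 3 it was that of *Dapl1* (70.8 and 200 CPM). In cluster 1 the sum was 10.8% of the cluster 2 level in lean and 11.6% in obese cells, *Socs3* was 5.99% and 10.3% of its cluster 2 level, *Ccr7* 12.2% and 8.64%, and *S1pr1* 2.61% and 8.16%. The part of free RNA, doublets or cells of mixed state in these differences was not tested.

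Transcripts of leptin and interleukin 6 were hardly captured in these sorted cells. *Lep* had 0 UMIs in both libraries, which allows up to 0.122% of lean and 0.131% of obese cells with a UMI and sets no limit on cells with the transcript, and *Il6* had 0 lean UMIs and 1 obese UMI. *Lepr*, the leptin receptor gene, had 1 UMI in each library. *Il6ra*, the interleukin 6 receptor gene, had 254 and 351 UMIs (9.13 and 12.2 CPM), and *Il6st*, the shared signalling chain gp130, 257 and 286 UMIs (9.24 and 9.96 CPM).

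*Il6ra* was distributed over clusters much as *Socs3* was. It was at 40.4 and 44.9 CPM in cluster 2, at 16.7 and 19.4 CPM in cluster 0, at 8.32 and 18.6 CPM in cluster 4 and under 5 CPM in clusters 1 and 3. In cluster 1 it rested on 13 lean and 53 obese UMIs, a log2 ratio of 1.73 (0.83 to 2.73), and in cluster 3 on 7 and 21 UMIs, a log2 ratio of 2.37 (1.08 to 3.85). In cluster 2 the log2 ratio was 0.15 (−0.17 to 0.47), and over all cells 0.42 (0.18 to 0.66). *Il6st* was less like *Socs3*, at 26.4 and 30.6 CPM in cluster 2 and nearly as high in cluster 4, at 26.1 and 27.9 CPM. The intervals for the log2 ratio of *Il6st* held 0 over all cells (0.11) and in each of clusters 0 to 4.

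**Figure D5:**
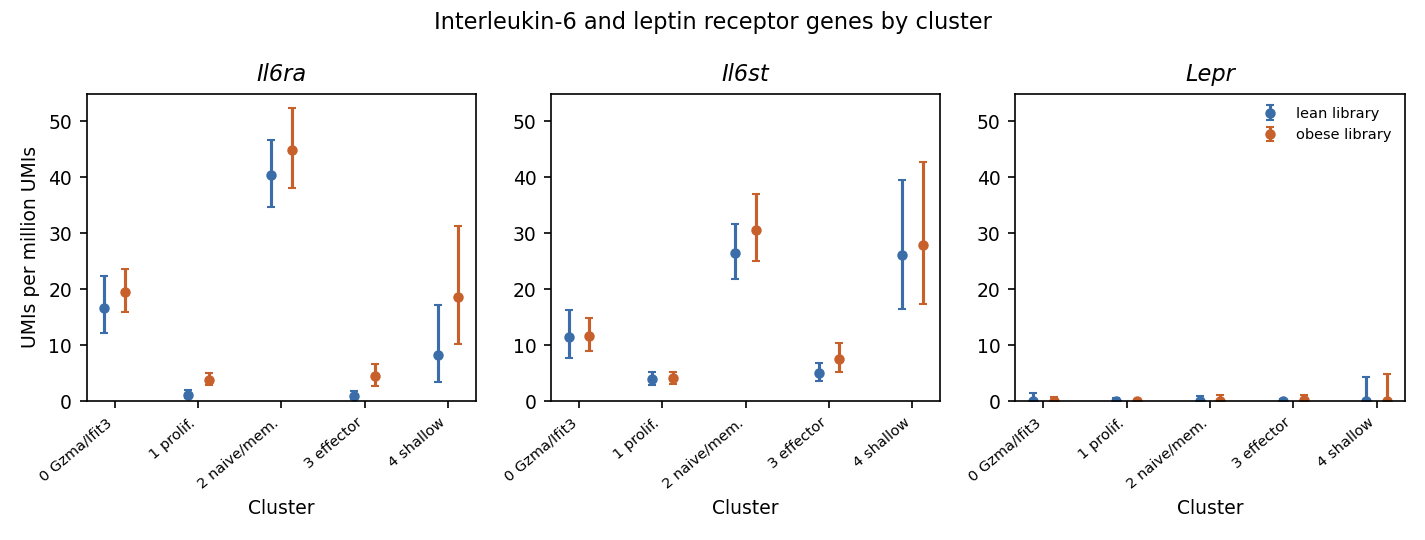
Level of *Il6ra*, *Il6st* and *Lepr*, in CPM, in clusters 0 to 4, with the lean library in blue, the obese in orange and exact Poisson 95% intervals as bars. *Il6ra* is highest in cluster 2 (40.4 and 44.9 CPM), *Il6st* is nearly as high in cluster 4 as in cluster 2, and *Lepr* rests on 1 UMI in each library.

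Within cluster 2, cells with and without an *Il6ra* or *Il6st* UMI had overlapping counting intervals for *Socs3* and for *Stat3*. With each cell thinned to 2000 UMIs, 24.6% (15.1 to 36.5%) of 69 lean cells with a receptor UMI had a *Socs3* UMI, against 27.9% (24.0 to 32.1%) of 505 cells without. In obese cells the shares were 43.5% (31.6 to 56.0%) of 69 and 37.8% (32.7 to 43.1%) of 349. *Stat3* was seen in 11.6% and 8.51% of these lean cells and in 17.4% and 13.8% of these obese cells, with overlapping intervals. Over all clusters together, *Socs3* was seen in 17.6% (11.3 to 25.7%) of 119 lean cells with a receptor UMI and in 11.4% (10.1 to 12.7%) of 2211 without. In obese cells the shares were 29.9% (22.5 to 38.0%) of 144 and 15.2% (13.6 to 16.8%) of 2033, and clusters differ in both genes.

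Of 84 other genes of the pathway, 57 had at least 10 CPM in 1 library, and 3 were higher and 5 lower in obese cells. Their median log2 ratio was −0.01, against 0.40 for the 7 feedback genes and 0.04 for all genes. Among ligands, *Csf2* (0.91) and *Il2* (0.78) were higher, and *Ifng* had −0.14. *Csf2* (6.22 CPM in lean and 11.7 CPM in obese cells) and *Il2* (9.78 and 16.8 CPM) reached 10 CPM only in the obese library. Among receptors, 2 of 16 were lower: *Il12rb2*, a chain of the interleukin 12 receptor, at −1.28 (−1.53 to −1.03) and *Il10ra* at −0.50. The highest ratio among receptors was that of *Il6ra*, at 0.42. *Il6ra* reached 10 CPM only in the obese library, and *Il12rb2* (16.4 CPM in lean and 6.76 CPM in obese cells) only in the lean library.

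Among the 4 JAK kinases, *Jak3*, the partner of the common gamma chain, was lower (−0.55), and *Jak2* had the highest ratio (0.28). None of the 5 other STAT genes passed the fold, and *Stat5b* had the highest ratio (0.07). Among 12 other inhibitors the phosphatase gene *Ptpn6* was lower (−0.56), and *Ptpn11* had the highest ratio (0.32). Of 17 further target genes, *Junb* was higher (0.83) and *Irf8* lower (−0.69). *Junb* is also on the immediate early list.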

How the data were processed

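Single-cell RNA was measured in tumor CD8+ T cells, in 1 library from lean and 1 from obese mice, grouped by the labels. The authors deposited the UMI count of each gene and cell for each library without normalization, made with Cell Ranger 6.0.2 on mm10 per the submitters' processing notes, and the annotation is not given in the sources used here. The other deposited files name genes and cells. The 8 genes and all lists were chosen with earlier results of these data known.

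UMIs were summed per library and cluster and divided by all UMIs of the same cells, as CPM, with Python 3.11.15 (numpy 2.4.6, scipy 1.17.1, pandas 2.3.3). Intervals of 95% were exact Poisson for CPM, exact binomial (Clopper-Pearson) for shares and exact conditional binomial for log2 ratios, and cover counting error only. The interval code was tested on simulated data. Limits for a count of 0 use 3 counts. Thinned cells were drawn to 2000 UMIs. Clusters came from Seurat 5.3.0 in R 4.3.3 on both libraries merged without integration (log normalization, 2000 variable genes after leaving out 92 member and pathway genes, 20 principal components, Louvain). The plan was the lowest resolution with 6 clusters, but no step of 0.05 gave 6, so the lowest with more (0.15, 7 clusters) was used. Finer clusters used resolution 0.8. Clusters were named from marker lists. Scrublet in scanpy 1.11.5 marked 2 of 4745 cells (0.0421%) and was taken as not having worked, so doublets were not removed. Named genes are the 8 members, the highest and lowest log2 ratio of each pathway role, *Lep*, *Lepr*, *Il6*, *Il6ra* and *Il6st*, and the 3 genes of most similar pattern to each member. The 8 naive or memory markers were looked at inside other clusters after the results were seen, and *Il2* and *Il10ra* were named after their values were seen. The values of some single pathway and marker genes are not reported here. Promoter sequences are from RefSeq and gene models from GENCODE, both on GRCm38, the build that mm10 names. Alternatives in scaling (TMM factors of edgeR 4.0.16 among them), cell weights, thinning, cell filters, doublet scores and clustering are given at the end. Figures were drawn with matplotlib 3.10.9.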

Additional observations from a re-analysis of the deposited data

Results flagged for a closer look

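In naive- or memory-like cluster 2 *Stat3* had a log2 ratio of obese over lean of 0.36, and in shallow cluster 4 one of −0.25, with intervals on opposite sides of 0. No test compared the ratios of these clusters.

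In the dendritic-like cluster, which no comparison by cluster uses, *Socs2* was at 89.0 CPM in 21 obese cells (28 UMIs) and had 0 UMIs in 10 lean cells.

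In the 241 lean and 334 obese cells that the filters left out, *Socs1* was at 61.7 CPM in obese and 44.2 CPM in lean cells, *Cish* at 35.9 and 23.0 CPM, and *Pim1* at 265 and 192 CPM, with intervals that did not overlap. *Stat3* went the other way, at 217 CPM (208 to 227) in obese and 240 CPM (228 to 253) in lean cells, also without overlap. *Socs3* was at 15.1 and 13.6 CPM in the same cells, with overlapping intervals. How many of all genes had such separate intervals in these cells was not counted.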

How the results depend on the processing

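With 1 library per diet, differences between mice, tumors and preparations could not be measured, so every value is limited to these libraries. No paired analysis was possible because each group has 1 library, numbered 1 only as a name. Rare genes are limited by depth: *Socs2* rests on 64 and 159 UMIs.

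Of the comparisons over all cells, 92 values under an alternative stayed within the counting interval or the count's limit, 25 moved and 1 reversed. The reversal was *Stat3*, at 0.11 with each cell thinned to 2000 UMIs. In the same setting *Socs1* had a log2 ratio of 0.23, *Socs3* 0.45, *Cish* 0.31, *Pim1* 0.39, *Bcl3* −0.74 and *Stat5a* 0.90, on few UMIs. Thinned to 1000 UMIs, *Socs1* had 0.65, *Socs2* 0.28, *Socs3* 0.32 and *Pim1* 0.44. As a mean over cells, *Socs3* had 0.46, *Cish* 0.40, *Pim1* 0.43 and *Stat3* −0.20. With the same cluster weights, *Socs1* had 0.31, *Socs2* 0.76, *Cish* 0.38 and *Pim1* 0.42. With all deposited cells, *Socs3* had 0.49 and *Pim1* 0.49, and with TMM scaling *Pim1* had 0.50 (0.496), just under the fold. The number of genes past the fold, 3 in the report, was 0 as a mean over cells, 1 thinned to 1000 UMIs (*Socs1*), 1 with all deposited cells (*Cish*) and 1 with the same cluster weights (*Socs3*). Thinned to 2000 UMIs, *Stat5a* was higher and *Bcl3* lower by the fold. Except for *Stat3*, each of the 8 genes kept its sign in every alternative, *Socs3* between 0.32 and 0.68 and *Pim1* between 0.39 and 0.56. Leaving out cluster 6, or clusters 4 and 5, was added after seeing the data and left *Socs3*, *Cish* and *Pim1* past the fold. At resolution 0.8 the range over clusters of both libraries together was 18.4-fold for *Socs3*, 5.05-fold for *Socs1* and 2.32-fold for *Socs2*, against 10.8, 2.82 and 3.97. The causes of these shifts were not tested.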
